A study of Mus musculus with 4 samples.

Results

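Claudins, the membrane proteins that form the strands of tight junctions, were described here in colon tumours of mice. The rule named 9 claudins of the colon epithelium by gene symbol. Of these, 7 have a row among the 14979 genes of the table: Cldn3, Cldn4, Cldn7, Cldn8, Cldn12, Cldn15 and Cldn23. All 7 passed the filter on low counts, as did 14331 genes in all. Cldn1 and Cldn2 have no row in the table and were not analysed here. The set was proposed with earlier results of these data in view, among them the values of Cldn4 and Cldn8, and the members were thus chosen by their symbols and selected on this same MAdCAM1 and IgG contrast. The claudin differences below are therefore descriptions and carry no test.

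The tumours came from AOM/DSS mice, in which the carcinogen azoxymethane is followed by dextran sulfate sodium, a chemical that inflames the colon. The MAdCAM1 group received an antibody against MAdCAM-1, an adhesion molecule of gut vessels that lymphocytes bind, while the IgG group was given an IgG antibody as its control. There were 2 mice a group, and the 4 libraries are called IgG 1, IgG 2, MAdCAM1 1 and MAdCAM1 2. Strain, sex, age, antibody dose and timing are not given in the sources used here, both groups carry tumours, and normal colon was not analysed here. RNA was measured by CAGE, which sequences the capped 5′ ends of transcripts and counts them as tags per gene. A transcript gives a tag at its 5′ end whatever its length, so levels are given as CPM (tag counts relative to library size, with TMM scaling) and not per length. Differences are log2 fold changes of MAdCAM1 over IgG.

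Epithelial cells are joined near their apical side by tight junctions, whose claudin strands set which ions and molecules pass between the cells. Sealing claudins such as Cldn1, Cldn3, Cldn4 and Cldn8 narrow this path, whereas pore-forming claudins such as Cldn2 and Cldn15 make channels for small cations. Other claudins have roles that depend on the tissue. In inflamed colon a shift from sealing to pore-forming claudins is a known feature of a leaky barrier. With Cldn2 missing, the pore-forming side here rests on Cldn15 alone, and the sealing side on Cldn3, Cldn4 and Cldn8.

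The libraries held between 14850923 and 16891234 tags, so that 1 tag equalled 0.0569 to 0.0700 CPM. The tissue label was checked against 9 general epithelial markers, whose summed level was 6385 and 5394 CPM in IgG 1 and IgG 2 and 9989 and 8642 CPM in MAdCAM1 1 and MAdCAM1 2. None of the 9 was at 0 in any library. In the same library order, 6 smooth muscle markers summed to 1690, 107, 126 and 1904 CPM and 9 leukocyte markers to 174, 402, 163 and 479 CPM. Smooth muscle and leukocyte marker levels therefore differed between mice of the same group, while the summed epithelial level was higher in both MAdCAM1 libraries. Of the 9 epithelial markers, 6 were higher without overlap between the groups, 0 were lower and 3 overlapped (Krt18, Esrp1 and Cdh17). Krt18 stood at 480 and 522 against 504 and 396 CPM. Over all tested genes, 19.7% were higher and 18.7% lower without overlap. In such bulk tumours, fewer epithelial cells and less RNA per epithelial cell cannot be told apart.

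The claudins together took 0.210% and 0.207% of all tags in the IgG libraries and 0.280% and 0.243% in the MAdCAM1 libraries. Their summed level was 2014 and 2015 CPM against 2909 and 2496 CPM, so the group means differed 1.34-fold. By mean level over the 4 libraries the order was Cldn7, Cldn4, Cldn3, Cldn23, Cldn12, Cldn8 and Cldn15. Cldn7 lay above every other claudin in all 4 libraries, with a lowest value of 1090 CPM against a highest Cldn4 value of 569 CPM. Cldn4 and Cldn3 overlapped in range, and a 14.5-fold step in mean level separated Cldn3 from Cldn23. The ranges of Cldn23 and Cldn12, of Cldn12 and Cldn8, and of Cldn8 and Cldn15 also overlapped, so the order among these 4 low claudins depends on the library. Cldn8 was nevertheless above Cldn15 in each of the 4 libraries.

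**Figure D1:**
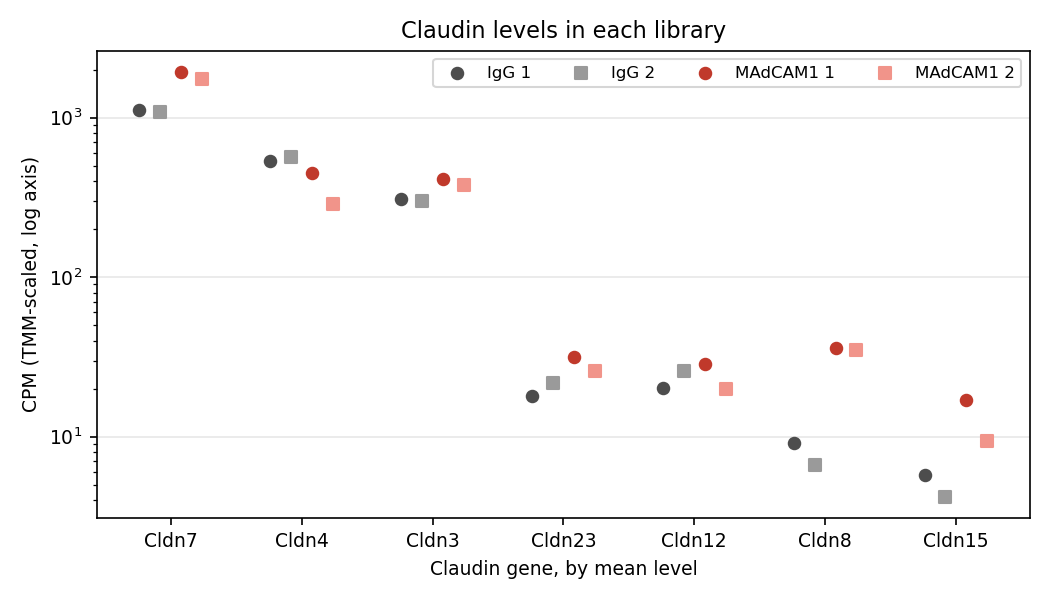
Level of each claudin (y axis, CPM with TMM scaling, log axis) in each library, with genes in order of mean level along the x axis; each point is 1 library of 1 mouse. Cldn8 sits between 6.62 and 9.16 CPM for IgG and between 35.0 and 36.1 CPM for MAdCAM1, whereas Cldn4 is lower in both MAdCAM1 libraries and Cldn12 overlaps.

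In the MAdCAM1 libraries 5 of the 7 claudins stood above both IgG libraries (Cldn3, Cldn7, Cldn8, Cldn15 and Cldn23), 1 stood below both (Cldn4), and 1 overlapped (Cldn12). Over all tested genes, 19.7% were higher without overlap and 18.7% were lower without overlap. The edgeR quasi-likelihood test called 0 genes in either direction (0% of 14331), and 5.09% of genes were higher and 1.82% lower at an unadjusted p under 0.05. DESeq2 called 1.53% of genes higher and 0.14% lower, with Cldn7 and Cldn8 among the higher ones. edgeR's exact test called 1.06% higher and 0.0628% lower, with Cldn8 among the higher ones. Because the claudins were chosen with this comparison known, nothing is read from these counts and calls about the set or about any single claudin. The median log2 fold change of the 7 claudins was 0.53, beside −0.0012 over all genes and 0.59 over the 9 general epithelial markers.

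Of the sealing claudins, Cldn8 differed most. It limits the leak of sodium back into the lumen of the distal colon, where sodium is taken up by the epithelial channel ENaC. Cldn8 (ENSMUSG00000050520.5, chromosome 16, 88357716 to 88360071 on GRCm39, minus strand) had 161 and 107 tags in IgG 1 and IgG 2 and 515 and 541 tags in MAdCAM1 1 and MAdCAM1 2. Its levels were 9.16 and 6.62 CPM against 36.1 and 35.0 CPM. The MAdCAM1 mice lay within 1.03-fold of each other and the IgG mice within 1.38-fold, and the groups were far apart. The log2 fold change was 2.17 (SE 0.23, n = 2 mice per group), a 4.50-fold difference. Over all genes, 1.38% were at least 4-fold higher without overlap.

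Cldn4 and Cldn3 are sealing claudins that both serve as receptors of an enterotoxin of Clostridium perfringens, and their differences had opposite signs. Cldn4 (ENSMUSG00000047501.4, chromosome 5, 134973973 to 134975788, minus strand) stood at 536 and 569 CPM in IgG 1 and IgG 2 and at 449 and 285 CPM in MAdCAM1 1 and MAdCAM1 2. Both MAdCAM1 values were below both IgG values, but the MAdCAM1 mice differed 1.57-fold between themselves. The log2 fold change was −0.59 (SE 0.26, n = 2), −0.30 without MAdCAM1 2 and −0.95 without MAdCAM1 1. Cldn3 (ENSMUSG00000070473.5, chromosome 5, 135015068 to 135016326, plus strand) stood at 309 and 299 CPM against 414 and 376 CPM. The Cldn3 groups did not overlap, and the log2 fold change was 0.38 (SE 0.15, n = 2).

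The ratio of Cldn4 to Cldn3 level within a library does not depend on the scaling. It was 1.74 and 1.90 in IgG 1 and IgG 2 and 1.08 and 0.760 in MAdCAM1 1 and MAdCAM1 2, which is 2.00-fold lower in the MAdCAM1 group by geometric means. Cldn4 thus exceeded Cldn3 in 3 of 4 libraries and was below it in MAdCAM1 2. Against Cldn8 the Cldn4 level was 58.5 and 85.9 times as high in the IgG libraries and 12.4 and 8.15 times as high in the MAdCAM1 libraries. The sealing claudins therefore differed in their proportions as well as in their levels.

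Cldn4 and Cldn3 are neighbours on chromosome 5, transcribed away from each other from opposite strands with 39279 bases between them and no tested gene in that interval. The tested gene next to Cldn4, Mettl27, stood at 12.1 and 9.46 CPM against 7.91 and 9.06 CPM. Next to Cldn3, Abhd11 overlapped between the groups, at 56.4 and 47.1 against 54.1 and 49.5 CPM. Its antisense neighbour Abhd11os stood at 41.0 and 31.4 against 93.5 and 105 CPM, with a log2 fold change of 1.46 (SE 0.19; edgeR adjusted p = 0.640). These 3 neighbours were picked for their position after the values were seen, and reads of Abhd11 and Abhd11os cannot be told apart if strand was not used in counting.

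The bases just before the annotated starts of Cldn4, Cldn3 and Cldn15 are shown because these 3 genes, all on chromosome 5, cover the lower sealing, the higher sealing and the pore-forming claudin. Sequences are from the RefSeq promoter table (GRCm38.p6), which held 5 of the 7 claudins (not Cldn8 and Cldn23), and each was placed on GRCm39 by its single exact match. They are the 250 bases before the RefSeq start, 5′ to 3′ on the gene's strand, at chr5:134975789-134976038 (minus) for Cldn4, chr5:135014818-135015067 (plus) for Cldn3 and chr5:136996473-136996722 (plus) for Cldn15, whose window lies inside the longer GENCODE gene. Capitals mark matches to any of 6 short motifs, named after the sequences.
Cldn4: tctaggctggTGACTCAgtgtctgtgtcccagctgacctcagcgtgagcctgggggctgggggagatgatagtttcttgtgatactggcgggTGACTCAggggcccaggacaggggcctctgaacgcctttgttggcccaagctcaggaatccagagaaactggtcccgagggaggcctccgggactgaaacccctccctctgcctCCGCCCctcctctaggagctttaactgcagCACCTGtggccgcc
Cldn3: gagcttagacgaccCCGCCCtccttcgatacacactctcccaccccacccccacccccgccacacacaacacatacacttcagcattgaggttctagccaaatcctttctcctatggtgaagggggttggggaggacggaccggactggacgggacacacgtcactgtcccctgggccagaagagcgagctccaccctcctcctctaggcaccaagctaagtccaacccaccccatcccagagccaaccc
Cldn15: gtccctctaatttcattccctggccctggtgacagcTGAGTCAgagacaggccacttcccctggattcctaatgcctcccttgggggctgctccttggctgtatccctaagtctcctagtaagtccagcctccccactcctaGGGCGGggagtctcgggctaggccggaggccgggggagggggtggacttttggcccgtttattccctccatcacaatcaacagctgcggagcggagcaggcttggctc

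The motifs searched on both strands were CAGGTG (the E-box bound by Snail repressors), GGGCGG (the GC box), TGACTCA (the AP-1 site), TTTATG (a CDX site), TATAAA (the TATA box) and CTTTGA (the core of a TCF site). No matches overlapped in these windows. The Cldn4 window held TGACTCA at −240 and −158 (first base, counted from the start), GGGCGG as its reverse complement at −44 and CAGGTG as its reverse complement at −14. The Cldn3 window held only GGGCGG, reversed at −236, and the Cldn15 window held TGACTCA reversed at −214 and GGGCGG at −108. Of 32851 promoter windows of the same length, 4.46% held TGACTCA, 17.2% held CAGGTG, 32.7% held GGGCGG, 10.8% held TTTATG, 12.4% held TATAAA and 13.8% held CTTTGA. A match describes letters only, and the gene counts do not say which start the tags came from.

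Cldn15, which forms a channel for sodium and other small cations, was the lowest of the 7 and stood higher in the MAdCAM1 libraries. Cldn15 (ENSMUSG00000001739.15, chromosome 5, 136995470 to 137004712, plus strand) had 101 and 68 tags in IgG 1 and IgG 2 and 242 and 145 tags in MAdCAM1 1 and MAdCAM1 2. Its levels were 5.75 and 4.20 CPM against 16.9 and 9.39 CPM. The groups did not overlap, although the MAdCAM1 mice differed 1.80-fold. The log2 fold change was 1.40 (SE 0.41, n = 2), and 0.91 without MAdCAM1 1.

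Sealing and pore-forming claudins were set against each other as the mean log2 CPM of Cldn3, Cldn4 and Cldn8 minus the log2 CPM of Cldn15. The difference was 4.30 and 4.59 in IgG 1 and IgG 2 and 3.47 and 4.03 in MAdCAM1 1 and MAdCAM1 2, so the groups did not overlap. The MAdCAM1 mean was lower by a log2 change of −0.70, beside a within-group SD of 0.32. Summed CPM gave a sealing level 149 and 208 times that of Cldn15 in the IgG libraries and 53.1 and 74.1 times in the MAdCAM1 libraries, a log2 change of −1.49. The value depended on which sealing claudins entered: it was −1.46 without Cldn8 and −0.063 without Cldn4. Both classes thus held a claudin that was higher in the MAdCAM1 group. The lower contrast does not stand for lower sealing claudins as a class. Cldn3 and Cldn8 were higher (log2 fold changes 0.38 and 2.17) and Cldn4 was lower (−0.59). The mean log2 level of the sealing claudins was higher in the MAdCAM1 group, and that of Cldn15 was higher by more (1.40). In summed CPM the sealing claudins overlapped between the groups, at 854 and 874 (IgG) against 899 and 696 (MAdCAM1). Cldn15, the only pore-forming claudin here, stood at 5.75 and 4.20 against 16.9 and 9.39 CPM.

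Cldn7, the claudin that binds the adhesion protein Epcam at the sides of intestinal cells, was the most abundant. Cldn7 (ENSMUSG00000018569.13, chromosome 11, 69852648 to 69858711, plus strand) stood at 1116 and 1090 CPM in IgG 1 and IgG 2 and at 1933 and 1745 CPM in MAdCAM1 1 and MAdCAM1 2. Mice of a group lay within 1.02-fold and 1.11-fold of each other, and the groups did not overlap. The log2 fold change was 0.74 (SE 0.15, n = 2). Elp5, a gene on the opposite strand that overlaps Cldn7 by 543 bases, had 519 to 627 tags per library against at least 17627 of Cldn7. Opposite-strand genes also overlap Cldn3 (Wbscr25, by 1259 bases) and Cldn12 (Gm30325, by 21821 bases), and neither has a row. Their tags cannot be told apart from those of Cldn3 and Cldn12 if strand was not used in counting. Epcam stood at 1944 and 2049 against 3184 and 2810 CPM, while the ratio of Cldn7 to Epcam was 0.574 and 0.532 in the IgG libraries and 0.607 and 0.621 in the MAdCAM1 libraries.

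Cldn23, a claudin of the surface epithelium of the gut, stood at 17.9 and 21.6 CPM in IgG 1 and IgG 2 and at 31.4 and 25.7 CPM in MAdCAM1 1 and MAdCAM1 2. Cldn23 (ENSMUSG00000055976.7, chromosome 8, 36291866 to 36293713, minus strand) had a log2 fold change of 0.53 (SE 0.21, n = 2) without overlap between the groups. Cldn12, which lacks the tail that other claudins use to bind junction scaffolds, overlapped at 20.1, 25.7, 28.4 and 19.9 CPM in the same library order. Cldn12 (ENSMUSG00000046798.15, chromosome 5, 5539537 to 5564995, minus strand) had a log2 fold change of 0.07 (SE 0.26, n = 2). It was the member whose values followed the groups least.

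The make-up of the claudin tags differed between the groups in 2 main genes. Cldn7 took 55.4% and 54.1% of claudin tags in IgG 1 and IgG 2 and 66.5% and 69.9% in MAdCAM1 1 and MAdCAM1 2. Cldn4 took 26.6% and 28.2% against 15.4% and 11.4%. Cldn3 had a similar share throughout, at 15.3%, 14.8%, 14.2% and 15.0% in that order. Cldn8 took 0.455% and 0.328% against 1.24% and 1.40%, and Cldn15 took 0.285% and 0.209% against 0.582% and 0.376%. These shares are within the claudins and do not depend on library scaling.

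**Figure D2:**
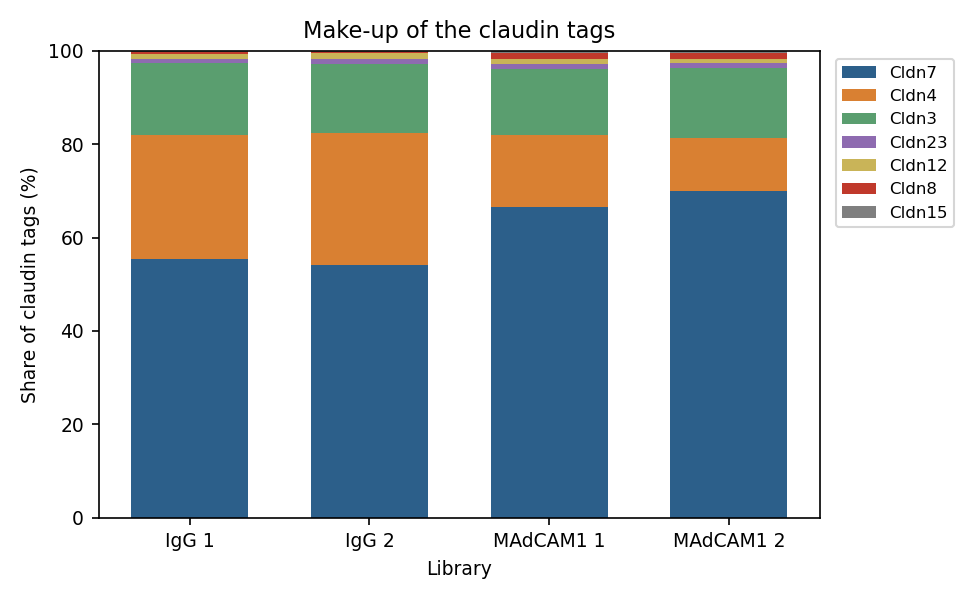
Share of the tags of the 7 claudins (y axis, %) taken by each gene in each library (x axis); segments are stacked from the most to the least abundant gene. The Cldn4 segment covers 26.6% and 28.2% in the IgG libraries and 15.4% and 11.4% in the MAdCAM1 libraries, while Cldn7 covers 54.1% to 55.4% and then 66.5% to 69.9%.

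The summed level of the epithelial markers was also higher in the MAdCAM1 group. The claudins were therefore set against the epithelium by scaling each library to 7 epithelial genes (Epcam, Cdh1, Krt8, Krt18, Krt19, Vil1 and Esrp1). With TMM scaling, 5 of these 7 were higher without overlap and 2 overlapped (Krt18 and Esrp1). This scaling shifted the median over all genes to a log2 fold change of −0.51, and left 4.49% of genes higher and 61.4% lower without overlap. The quasi-likelihood test then called 0.0419% higher and 0.0279% lower, none of them a claudin. Cldn8 was still higher, at 9.86 and 8.72 scaled CPM against 27.6 and 32.2 (log2 fold change 1.68, SE 0.33). Cldn15 was also higher, at 6.19 and 5.54 against 13.0 and 8.64 (0.88, SE 0.45), and Cldn7 stood at 1202 and 1437 against 1480 and 1606 (0.23, SE 0.32). Cldn4 was lower at 577 and 750 against 344 and 263 scaled CPM (−1.13, SE 0.33), a 2.19-fold difference. Cldn3 (−0.13), Cldn23 (−0.0017) and Cldn12 (−0.47) overlapped between the groups. Per epithelial level, therefore, Cldn8 and Cldn15 lay above both IgG libraries and Cldn4 below, and the separation of Cldn3 and Cldn23 was lost. Cldn7 also lay above, but only narrowly (1480 against 1437) and with a difference smaller than its SE.

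**Figure D3:**
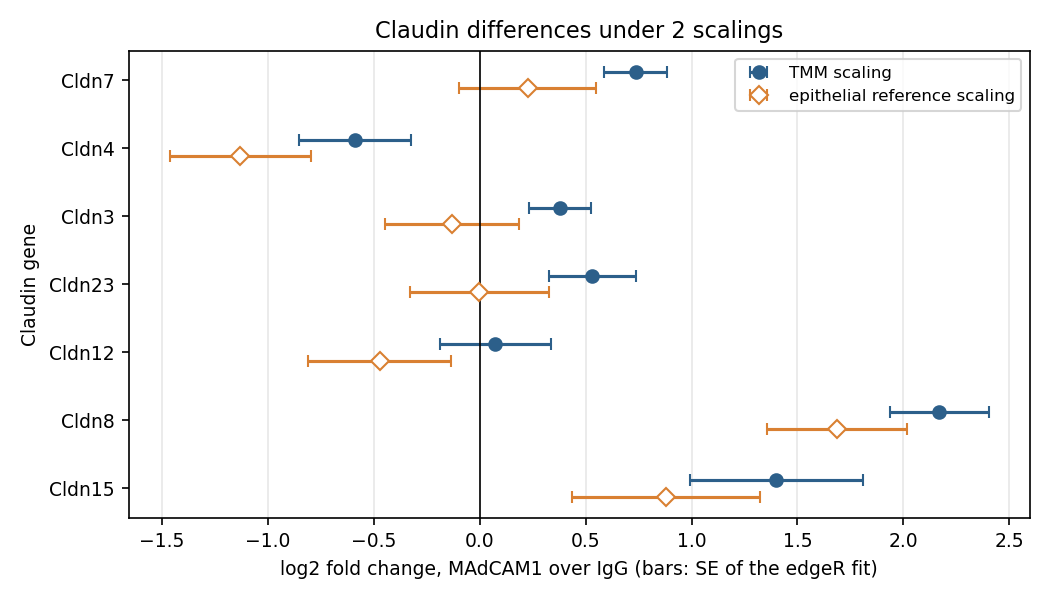
Log2 fold change of MAdCAM1 over IgG (x axis) for each claudin (y axis) with TMM scaling (filled circles) and with scaling to 7 epithelial genes (open diamonds); bars are the SE of the edgeR fit, n = 2 mice per group. Cldn8 is at 2.17 and 1.68 and Cldn4 at −0.59 and −1.13, while Cldn3 and Cldn23 move from 0.38 and 0.53 to −0.13 and −0.0017.

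Other tight junction genes were examined to see whether the junction as a whole differed. Of 22 further claudin genes listed, Cldn5 and Cldnd1 have a row. Cldn5, the claudin of blood vessel walls, stood at 6.83 and 6.93 against 1.33 and 7.70 CPM (MAdCAM1 1 before MAdCAM1 2), and 6 endothelial markers summed to 45.9 and 58.4 against 22.3 and 94.2 CPM. MAdCAM1 1 was lowest in both, with 19 Cldn5 tags. Cldnd1, a distant relative of claudins, overlapped at 91.0, 61.5, 60.3 and 73.2 CPM.

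Of 10 tested membrane partners of claudins, 2 were higher and 0 lower without overlap. This is near the 19.7% of all genes that were higher, a share to be read, with the 18.7% that were lower, beside the counts of each list below. The median log2 fold change was 0.14, and the edgeR quasi-likelihood test called 0. Ildr1, an angulin of the corners where 3 cells meet, stood at 48.2 and 47.5 CPM against 79.2 and 96.1 CPM, a log2 difference of 0.87 (SE 0.16; edgeR adjusted p = 0.665, DESeq2 adjusted p = 0.0183). Igsf5, an adhesion molecule of the junction, stood at 45.7 and 40.4 against 56.5 and 55.8 CPM (0.38, SE 0.14; edgeR adjusted p = 0.719). Occludin (Ocln) overlapped, with 64.0 and 78.7 against 97.6 and 72.7 CPM, as did the angulin Lsr with 531 and 586 against 692 and 555 CPM.

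Scaffold and polarity genes, which anchor claudins to the cytoskeleton, had 6 of 20 tested members higher and 3 lower without overlap, and their median log2 fold change was 0.01. The scaffold Tjp3 (ZO-3) stood at 82.7 and 84.7 against 127 and 96.9 CPM, and cingulin (Cgn) at 80.2 and 65.4 against 98.7 and 85.6 CPM. Magi3, another scaffold, stood at 49.9 and 31.5 against 57.2 and 58.8 CPM. The angiomotin relative Amotl1 lay below, with 14.2 and 18.1 against 6.37 and 9.65 CPM, a log2 difference of −1.01 (SE 0.31; edgeR adjusted p = 0.691). The quasi-likelihood test called 0 of these genes, and so did DESeq2.

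Proteins that stabilise or trim claudins had 5 of 9 tested members higher and 1 lower without overlap, a median of 0.20 and 0 called by edgeR. Besides Epcam (log2 fold change 0.59, SE 0.15; edgeR adjusted p = 0.691, DESeq2 adjusted p = 0.0402), the membrane protease Prss8 stood at 9.79 and 7.48 against 16.8 and 12.2 CPM. Lnx1, a ubiquitin ligase that acts on claudins, stood at 11.6 and 10.4 against 17.5 and 12.4 CPM.

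Other junctions and the actomyosin belt showed medians near 0. Adherens junction genes had 2 of 10 higher in both and 1 lower in both (median −0.01), desmosome genes 2 of 8 and 0 (0.07), and perijunctional actomyosin genes 2 of 13 and 1 (−0.0011). The quasi-likelihood test called 0 in each list. E-cadherin (Cdh1) stood at 474 and 360 against 620 and 524 CPM, while the desmosomal cadherin Dsg2 was at 356 and 251 against 407 and 427 CPM. β-Catenin (Ctnnb1), which links cadherins to actin and carries Wnt signals, stood at 492 and 677 against 489 and 454 CPM. It lay below without overlap, but IgG 1 and MAdCAM1 1 were nearly equal (log2 fold change −0.31, SE 0.21, edgeR adjusted p = 0.830).

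**Figure D4:**
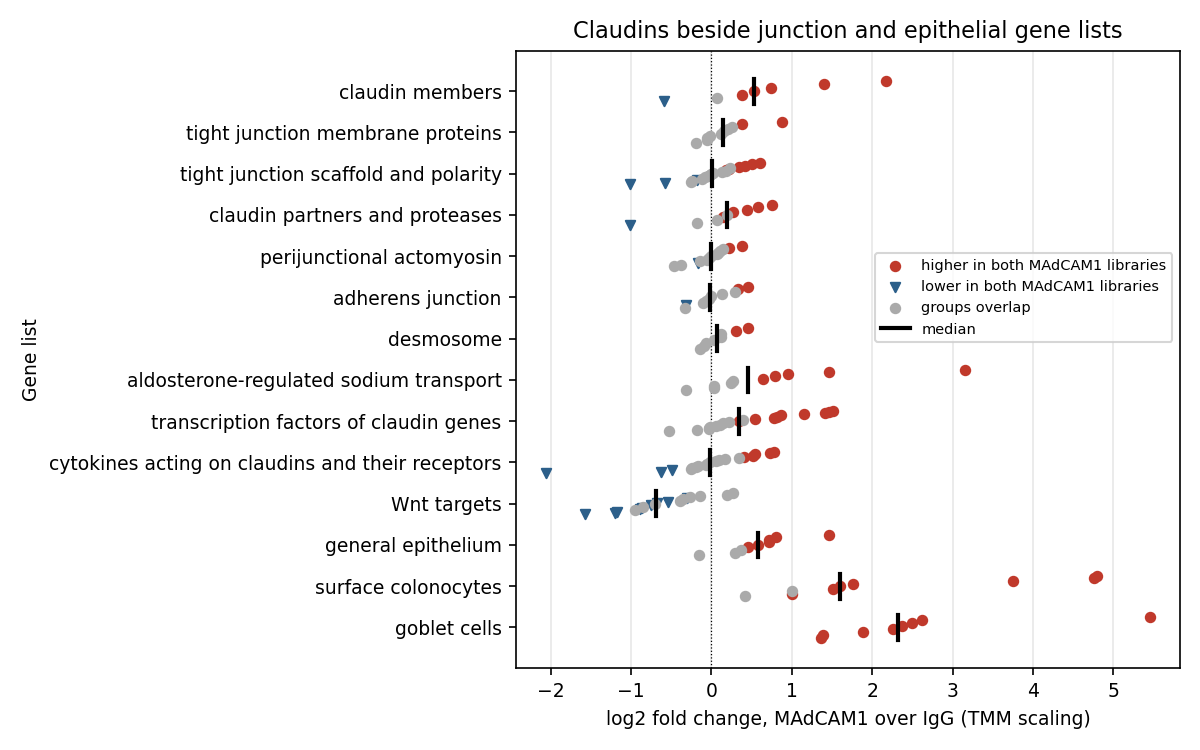
Log2 fold change of MAdCAM1 over IgG (x axis, TMM scaling) for every tested gene of each list (y axis); red circles are genes higher in both MAdCAM1 libraries, blue triangles are lower in both, grey circles overlap and the black bar is the list median. Junction lists have medians between −0.01 and 0.20, the claudins 0.53, general epithelium 0.59 and surface colonocytes 1.60.

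Genes of aldosterone-regulated sodium uptake, the transport that Cldn8 seals in distal colon, had 5 of 10 tested members higher and 0 lower without overlap, and a median of 0.46. All genes had 19.7% higher and 18.7% lower. The list median was 0.18 without IgG 2 and −0.05 with epithelial scaling, where 2 members were higher and 3 lower without overlap. With epithelial scaling all genes had a median of −0.51, with 4.49% higher and 61.4% lower without overlap. Hsd11b2, the enzyme that keeps the mineralocorticoid receptor free for aldosterone, stood at 5.01 and 1.30 against 31.6 and 24.6 CPM, a log2 difference of 3.15 (SE 0.70; edgeR adjusted p = 0.665, DESeq2 adjusted p = 0.000773). The receptor gene Nr3c2 stood at 34.4 and 16.1 against 70.0 and 69.7 CPM (1.47, SE 0.40; edgeR adjusted p = 0.691). The ENaC subunit Scnn1b stood at 1.99 and 3.15 against 3.92 and 4.14 CPM, while the sodium pump regulator Fxyd4 was at 86.9 and 26.8 against 131 and 88.8 CPM. No gene of the list was called by the quasi-likelihood test, and 1 by DESeq2.

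Among transcription factors known to act on claudin genes, 9 of 19 tested members were higher and 0 lower without overlap, at a median of 0.35 (0.64 without IgG 1) and 0 called by edgeR or DESeq2. Over all genes these shares were 19.7% and 18.7%. The intestinal factors Cdx1 and Cdx2 stood at 49.2 and 22.4 against 91.6 and 99.6 CPM and at 5.52 and 3.71 against 16.9 and 9.52 CPM. Hnf4a stood at 175 and 110 against 236 and 254 CPM, and its relative Hnf4g at 8.14 and 6.99 against 13.4 and 14.2 CPM. With epithelial scaling the list median was −0.16, with 4 of 19 genes higher and 4 lower without overlap, where all genes had a median of −0.51, 4.49% higher and 61.4% lower.

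Cytokines that act on claudins and their receptors had 5 of 19 tested members higher and 3 lower without overlap and a median of −0.02, and edgeR called 0. Tnf stood at 36.7 and 36.0 against 29.5 and 22.3 CPM, a log2 difference of −0.49 (SE 0.20; edgeR adjusted p = 0.731). Il13ra1, a chain of the receptor for interleukin 13, stood at 73.2 and 53.6 against 90.4 and 127 CPM, while the receptor chain Il10rb was at 61.8 and 63.8 against 81.3 and 85.2 CPM. The cytokine genes Ifng, Il4, Il6, Il10, Il13, Il22 and Tnfsf14 have no row and were not analysed here.

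Markers of mature epithelium stood higher beside the claudins. Surface colonocyte markers had 7 of 9 tested members higher and 0 lower without overlap (median 1.60), and goblet cell markers 8 of 8 and 0 (2.32), while Wnt targets had 0 of 18 and 9 (−0.68). Enteroendocrine markers had 6 of 7 higher and 0 lower (3.19), and their summed level was 28.2 and 6.99 CPM in the IgG libraries and 136 and 155 CPM in the MAdCAM1 libraries. Plasma cell markers had 3 of 5 higher and 0 lower, with a median of 1.78 that was 0.21 without MAdCAM1 2. Leaving out IgG 1 moved the surface colonocyte, goblet cell and enteroendocrine medians to 2.46, 3.18 and 4.48. Without IgG 2 they were 1.18, 1.72 and 2.39. When single libraries were left out, the Wnt target median ran from −1.03 (without MAdCAM1 1) to −0.36 (without IgG 2). Beside these counts stand 19.7% of all genes higher and 18.7% lower, and the quasi-likelihood test called 0 genes of each list. Krt20, a keratin of the colon surface, had a log2 fold change of 1.51 (SE 0.24; edgeR adjusted p = 0.640, DESeq2 adjusted p = 4.2e-05). The part of these cell types in the claudin values was not tested.

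The genes whose pattern over the 4 libraries lay closest to that of Cldn8 were sought among 13982 genes by the Euclidean distance of mean-centred log2 CPM. They were the zinc transporter Slc39a5 (distance 0.11), Tldc2 (0.16), Hoxaas3 (0.17), the peptide transporter Slc15a1 (0.17) and Cyp4f14 (0.23). Slc39a5, for example, stood at 4.89 and 3.28 against 18.0 and 19.1 CPM. For Cldn4 they were Ncs1 (0.05), Bcl7a (0.07), Gm22571 and SNORD16 (0.08 each, with identical values) and Slit2 (0.10), and Bcl7a stood at 36.3 and 37.4 against 30.7 and 18.3 CPM. With 4 libraries these distances only describe the patterns.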

How the data were processed

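CAGE libraries of colon tumours from 4 mice (2 per antibody group) were analysed. Per the labels' protocols, the authors used BWA 0.7.17 against GRCm39, then HISAT2 2.0.5 for reads left unmapped, clustered them with RECLU, dropped clusters that were rare, long or irreproducible, kept regions shared by replicates with bedtools 2.12.0, and used edgeR 3.22.5. The cluster filters act on replicates, so a gene with weak or uneven starts may have no row. The way gene totals were made from clusters is not given in the sources used here. The deposited values are raw tag counts per gene, and all are whole numbers.

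Counts of all genes were filtered with filterByExpr, scaled by TMM and fitted in edgeR 4.0.16 (R 4.3.3) by the robust quasi-likelihood test of MAdCAM1 minus IgG, with Benjamini-Hochberg adjustment over all tested genes and a threshold of 0.05. A claudin's SE is its log2 fold change divided by the square root of the F statistic. Log2 CPM used a prior count of 2. Coordinates come from GENCODE M39 (GRCm39). The claudins and lists were chosen with earlier results of these data known. Named genes are the claudins, up to 4 genes per list with the smallest p, and the 5 nearest in pattern to Cldn8 and Cldn4 (mean CPM at least 1), the latter also planned for Cldn2, which has no row; 1 gene that this rule names is not reported here. Replicate numbers belong to different mice, so no block was used. DESeq2 1.42.0, limma-voom (3.58.1), the exact test, other scalings and filters, and leaving out each library were alternatives. On simulated data of 14221 genes with 50 genes planted per fold change, the quasi-likelihood test recovered 2, 25, 40 and 45 at 2, 4, 8 and 16-fold with 11 false calls, and DESeq2 8, 38, 44 and 48 with 65. No table column was left out.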

Additional observations from a re-analysis of the deposited data

How the results depend on the processing

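Of 105 log2 fold changes of the 7 claudins under 15 alternatives, 92 moved by less than the spread between mice, 13 by more, and 6 changed sign. Epithelial scaling moved all 7 and turned Cldn3, Cldn12 and Cldn23. The other 3 sign changes were of Cldn12, with library size scaling, without IgG 1 and without MAdCAM1 1. Cldn8 ranged from 1.68 to 2.41, Cldn15 from 0.88 to 1.76, Cldn7 from 0.23 to 0.81 and Cldn4 from −1.13 to −0.30. The sealing minus pore-forming change of −0.70 ranged from −0.98 (without MAdCAM1 2) to −0.41 (without MAdCAM1 1). It was −1.49 by summed CPM, and, in alternatives chosen after seeing the data, −1.46 without Cldn8 and −0.063 without Cldn4, by their construction. Over all genes the quasi-likelihood test called 0 higher and 0 lower, epithelial scaling 6 and 4, DESeq2 219 and 20 and the exact test 152 and 9; the cause was not tested. None of the 10 genes called with epithelial scaling is a claudin listed here. Of 200 list medians under 10 alternatives, 172 moved by less than the spread between mice, 28 by more, and 30 changed sign, 9 of them with epithelial scaling.

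The labels do not say whether replicate numbers mark a shared litter or day, and deviations of IgG 1 and MAdCAM1 1 from their group means correlated at −0.14 across genes. The replicate block called 0 genes higher and 0 lower, and the crossed replicate block, added after seeing the data, also 0 and 0, with 580 and 884 genes higher and 116 and 494 lower at an unadjusted p under 0.05. With 2 mice per group, the 1.5-fold Cldn4 difference is close to the 1.57-fold spread between the MAdCAM1 mice, and Cldn15 rests on 68 to 242 tags per library.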
